A study of Mus musculus with 8 samples.

Results

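The ATF4 and unfolded protein response genes are 32 of the 54446 genes in the count tables. They were chosen by symbol and found through their Ensembl IDs in the GENCODE M21 annotation of the mouse genome mm10. The 23 ATF4 and amino acid genes comprise 6 factors (Atf4, Ddit3, Cebpb, Atf5, Atf3 and Nupr1), the feedback and glutathione genes Trib3 and Chac1, 6 amino acid transport genes (Slc7a11, Slc7a5, Slc3a2, Slc7a1, Slc7a3 and Slc38a2), 8 enzymes (Asns, Psat1, Phgdh, Psph, Mthfd2, Shmt2, Aldh18a1 and Pck2) and the lipoprotein receptor Vldlr. The 9 ER chaperones and sensors are Atf6, Xbp1, Hspa5, Hsp90b1, Calr, Pdia4, Dnajb9, Herpud1 and Sdf2l1. Ddit3 has another Ensembl ID of 105 bases with 0 counts in every library, so its values come from the main ID.

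Cells that lack amino acids or accumulate misfolded protein in the endoplasmic reticulum (ER) phosphorylate the translation factor eIF2, which slows most protein synthesis while favouring translation of the Atf4 mRNA. The ATF4 protein then induces genes for amino acid uptake, amino acid synthesis and tRNA charging, and with DDIT3 (CHOP) it can induce genes that act in cell death. The other ER sensors, ATF6 and IRE1 with its target XBP1, raise the chaperones and degradation factors of the ER, and in fast-dividing cells such as embryonic stem cells many of these genes are active without added stress.

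RNA of the nuclear fraction was sequenced from mouse embryonic stem cells of strain C57BL/6 in 4 groups of 2 samples, named in the labels Mettl14 CKO, Mettl14 Control, Mettl3 CKO and Mettl3 Control. METTL3 and METTL14 together form the enzyme that writes N6-methyladenosine (m6A) into RNA, and the series asks what each knockout does to nuclear RNA. All 4 groups were kept in the same medium, with 15% FBS, 1% nonessential amino acids, 1 mM L-glutamine, 0.1 mM of the reducing agent mercaptoethanol, 1000 U/ml of the cytokine LIF, 3 µM CHIR99021 (a GSK3 inhibitor) and 1 µM PD0325901 (a MEK inhibitor). The sources used here do not give the deleted exons, the means and time of deletion, the clones behind a group or whether both samples of a group were cultured separately. The p-values therefore rest on sample-to-sample spread that may be technical.

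To show where the letters bound by these pathways lie, the 250 bases before the RefSeq start were searched for 29 members with a RefSeq window (GRCm38.p6, the mm10 build). Slc7a5, Slc7a3 and Atf6 have none in the table used. The motifs, read on both strands with N for any base, were the ATF4 element CARE (TGATGNAA), the ER stress elements ERSE (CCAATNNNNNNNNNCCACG) and ERSE-II (ATTGGNCCACG), and the XBP1 element UPRE (TGACGTGG), whose reverse can overlap the CCACG end of an ERSE. CARE stood in 7 of 21 ATF4 and amino acid genes with a window (Asns, Atf3, Chac1, Nupr1, Pck2, Slc7a11 and Vldlr) and in 1 of 8 ER genes (Herpud1), against 3.45% of 32851 RefSeq windows. ERSE stood in 3 of 8 ER genes (Hspa5, Hsp90b1 and Calr) and 0 of 21 ATF4 and amino acid genes, against 0.113% of windows. ERSE-II stood in Herpud1 alone of the members, against 0.0304% of windows, and UPRE in 0 members, against 0.563%. Some members have 2 windows, and a member is counted if any of its windows holds the motif, while the shares are per window. A match describes letters in the window, not a bound site. The members were chosen as genes of these pathways and the motifs as elements of the same pathways. The shares of all windows are therefore given for scale and are no test of enrichment.

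The 8 windows printed next are each read 5′ to 3′ on the gene's strand with the motif in capitals. The windows with a CARE of Atf3, Nupr1 and Slc7a11 are not among them. Of the 8, all but Hspa5 and Asns were picked after the matches were seen. Atf4, Cebpb, Trib3, Ddit3, Slc7a1 and Slc38a2, which were also due, held no match and are not printed. The ERSE of Hspa5 lies 65 to 47 bases before the start (chr2:34771840-34772089, plus strand). The CARE of Asns lies 23 to 16 bases before it (chr6:7693210-7693459, minus strand). Hsp90b1 (chr10:86705445-86705694, minus strand) has 2 ERSE matches, 1 on each strand, and Calr (chr8:84846932-84847181, minus strand) has 1 on the reverse strand. Herpud1 (chr8:94386179-94386428, plus strand) holds a CARE on the reverse strand 112 to 105 bases and an ERSE-II 52 to 42 bases before the start. Chac1 (chr2:119350992-119351241, plus strand), Pck2 (chr14:55540016-55540265, plus strand) and Vldlr (chr19:27216770-27217019, plus strand) each hold 1 CARE on the reverse strand. Vldlr has 2 windows, of which windows with more matches were preferred for printing. The printed window of Vldlr lies after the annotated start of the gene at chr19:27216484. The matches of Hspa5 and Asns, though before the RefSeq start, also lie after an annotated start, at chr2:34771970 and chr6:7693254.
Hspa5: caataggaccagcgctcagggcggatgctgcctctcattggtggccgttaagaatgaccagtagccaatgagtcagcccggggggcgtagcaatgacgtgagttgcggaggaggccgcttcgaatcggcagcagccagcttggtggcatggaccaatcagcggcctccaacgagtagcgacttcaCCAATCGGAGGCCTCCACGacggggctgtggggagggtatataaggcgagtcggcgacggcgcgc
Hsp90b1: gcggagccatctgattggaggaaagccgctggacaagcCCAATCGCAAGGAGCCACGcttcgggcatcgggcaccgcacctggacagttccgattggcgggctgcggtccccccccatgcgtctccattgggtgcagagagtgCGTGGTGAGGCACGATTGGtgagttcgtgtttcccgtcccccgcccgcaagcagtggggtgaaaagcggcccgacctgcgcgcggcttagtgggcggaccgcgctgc
Calr: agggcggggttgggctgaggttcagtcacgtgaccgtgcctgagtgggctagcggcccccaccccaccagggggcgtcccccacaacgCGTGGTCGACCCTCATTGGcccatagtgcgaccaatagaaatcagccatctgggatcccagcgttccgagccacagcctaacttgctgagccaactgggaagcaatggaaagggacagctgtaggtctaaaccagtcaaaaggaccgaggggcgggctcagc
Herpud1: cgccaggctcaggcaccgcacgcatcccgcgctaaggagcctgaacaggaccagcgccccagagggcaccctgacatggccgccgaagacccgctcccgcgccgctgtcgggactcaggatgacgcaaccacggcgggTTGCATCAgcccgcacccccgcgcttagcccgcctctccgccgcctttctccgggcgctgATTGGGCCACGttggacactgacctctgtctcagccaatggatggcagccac
Asns: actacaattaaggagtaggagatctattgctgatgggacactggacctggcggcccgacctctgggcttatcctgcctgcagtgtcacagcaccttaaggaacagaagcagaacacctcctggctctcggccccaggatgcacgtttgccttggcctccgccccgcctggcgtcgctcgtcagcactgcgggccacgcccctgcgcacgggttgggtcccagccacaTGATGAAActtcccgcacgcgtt
Chac1: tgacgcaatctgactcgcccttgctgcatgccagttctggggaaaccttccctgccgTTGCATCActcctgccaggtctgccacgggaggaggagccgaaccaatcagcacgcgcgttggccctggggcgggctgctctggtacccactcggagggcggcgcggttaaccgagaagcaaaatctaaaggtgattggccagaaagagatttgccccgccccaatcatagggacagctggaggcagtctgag
Pck2: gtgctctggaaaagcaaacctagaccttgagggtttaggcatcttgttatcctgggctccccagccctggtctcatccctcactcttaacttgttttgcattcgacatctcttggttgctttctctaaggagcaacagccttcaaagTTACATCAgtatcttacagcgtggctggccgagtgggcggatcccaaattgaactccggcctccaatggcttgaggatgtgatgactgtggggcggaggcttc
Vldlr: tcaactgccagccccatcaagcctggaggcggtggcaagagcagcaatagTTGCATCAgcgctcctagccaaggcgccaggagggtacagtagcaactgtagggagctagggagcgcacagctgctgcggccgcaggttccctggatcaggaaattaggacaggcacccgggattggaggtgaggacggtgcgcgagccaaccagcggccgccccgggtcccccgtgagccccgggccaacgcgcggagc

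Between 17235889 and 20086128 reads were counted per library. Levels are given as CPM, counts per 1000000 of the TMM-scaled library size, and a gene is called at an edgeR quasi-likelihood p under 0.05 after Benjamini-Hochberg adjustment over all 21782 genes tested. Log2 fold changes compare 2 libraries with 2 and carry their standard error (SE). Mettl14 RNA was at 51.3% of its Control level in Mettl14 CKO, and Mettl3 RNA at 51.9% of its Control level in Mettl3 CKO, each below in both libraries. Mettl14 had 27.7 and 30.1 CPM in Mettl14 CKO, against 58.2 and 54.9 CPM in Mettl14 Control, and 29.5 and 28.7 CPM in Mettl3 CKO, against 30.02 and 26.7 CPM in Mettl3 Control. The Mettl14 CKO level thus lay close to that of both Mettl3 groups. Mettl3 had 40.6 and 44.3 CPM in Mettl14 CKO, against 40.1 and 43.6 CPM in Mettl14 Control, and 19.8 and 18.5 CPM in Mettl3 CKO, against 37.8 and 36.0 CPM in Mettl3 Control. Exons of 5 members overlap an expressed gene on the opposite strand (Ddit3, Cebpb, Atf5, Psph and Hsp90b1). As the strand setting of the counting is not given, reads of such pairs cannot be told apart. Hsp90b1 also shares 84 bases with Gm15344 on its own strand. Of the stem cell markers Pou5f1, Sox2 and Nanog, all were present in every library. The summed level of 10 stem cell markers was 2549 to 2550.1 CPM in Mettl14 CKO against 3457 to 3465 CPM in Mettl14 Control, and 1261 to 1269 CPM in Mettl3 CKO against 1346 to 1355 CPM in Mettl3 Control. Summed levels of 21 fibroblast markers were 5417 to 5424 CPM in Mettl14 CKO against 3565 to 3576 CPM in Mettl14 Control, and 15912 to 16068 CPM in Mettl3 CKO against 13917 to 14316 CPM in Mettl3 Control. For 14 primitive endoderm markers they were 1895 to 1925 CPM in Mettl14 CKO against 1204 to 1212 CPM in Mettl14 Control, and 3062 to 3096 CPM in Mettl3 CKO against 2784 to 2823 CPM in Mettl3 Control. At 0 were only 1 fibroblast marker and 1 endoderm marker, each in a single Mettl14 Control library. Of 10 stem cell markers tested, 1 rose and 9 fell in Mettl14 CKO (median -0.51, 3 by 2-fold or more). In Mettl3 CKO 1 rose and 5 fell (median -0.09). Of 20 fibroblast markers tested, 15 rose and 0 fell in Mettl14 CKO (median 0.88, 9 by 2-fold or more). In Mettl3 CKO 9 rose and 2 fell (median 0.13). Of the 13 endoderm markers tested, 5 rose and 0 fell in Mettl14 CKO (median 0.30). In Mettl3 CKO 4 rose and 1 fell (median -0.06), and 5 of the 13 had a positive change although their sum was higher. Of all genes tested, 18% rose and 22.4% fell in Mettl14 CKO, and 15.1% rose and 5.78% fell in Mettl3 CKO. The part of these sums in the results was not tested, and fewer cells of a type cannot be told apart from less RNA per cell.

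The most abundant members in these nuclei were 4 ER chaperones. Per kilobase of exon, Calr, the calcium-binding lectin chaperone calreticulin, averaged 931 CPM in Mettl14 CKO, 729 in Mettl14 Control, 509 in Mettl3 CKO and 489 in Mettl3 Control. It was the highest member in every group, with Hsp90b1 (the chaperone GRP94), Hspa5 (BiP, the chaperone that holds the ER sensors inactive) and Pdia4 (a disulfide isomerase) next in some order. The highest of the ATF4 and amino acid genes was Asns, asparagine synthetase, at 146 CPM per kb in Mettl14 CKO, 184 in Mettl14 Control, 77.6 in Mettl3 CKO and 88.6 in Mettl3 Control. Atf4 and Slc38a2 followed at 82.1 and 80.7 CPM per kb in Mettl14 CKO, and 86.9 and 59.2 in Mettl14 Control. In the Mettl3 groups Slc3a2 followed Asns instead, at 59.2 CPM per kb in Mettl3 CKO and 47.7 in Mettl3 Control. Slc38a2 came next there, at 53.2 and 45.6, and then Atf4, at 46.9 and 38.5. The lowest member in every group was Slc7a11, the cystine transporter xCT, at 0.717, 0.447, 0.482 and 0.377 CPM per kb in the same order of groups.

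**Figure D1:**
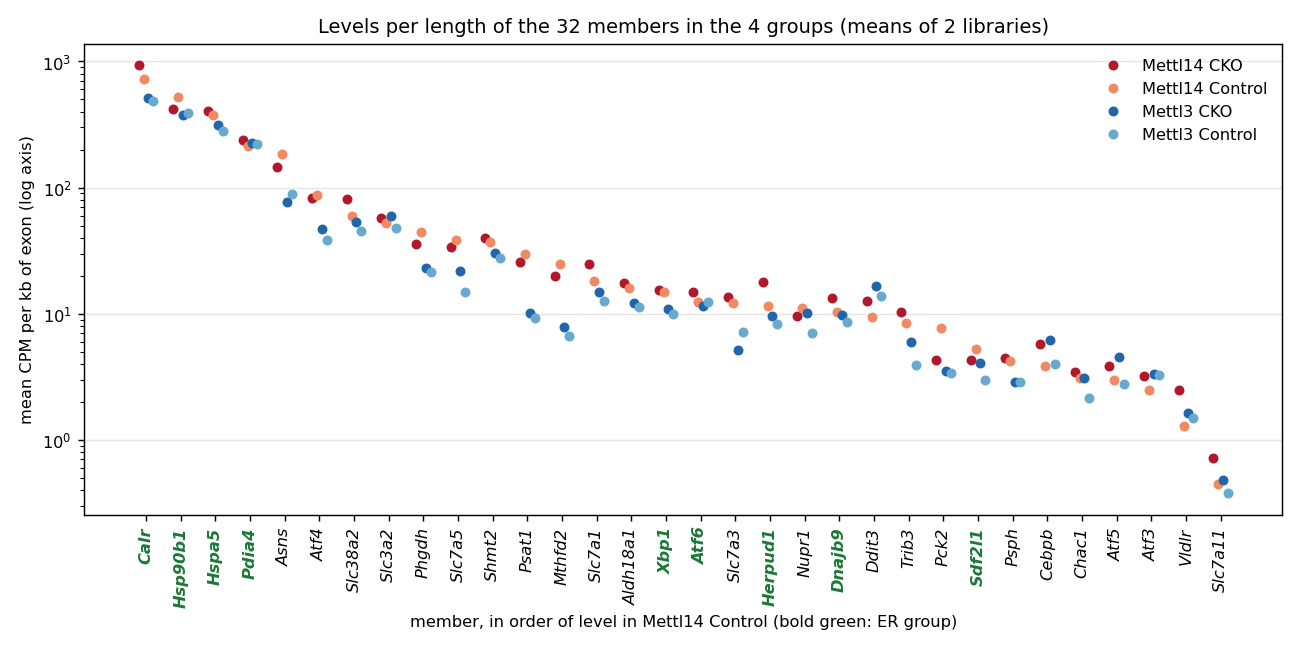
Mean level per length (CPM per kb of exon, log axis) of the 32 members in the 4 groups, ordered by their level in Mettl14 Control, with ER chaperones and sensors in bold green. Calr is highest and Slc7a11 lowest in every group, and the orange points (Mettl14 Control) lie above the light blue points (Mettl3 Control) for most members.

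Mettl14 CKO nuclei had higher levels of most amino acid transporter RNAs, of Vldlr and of most ER chaperones than Mettl14 Control nuclei, and lower levels of 5 of the 8 enzymes. Of the 23 ATF4 and amino acid genes, 11 rose, 8 fell and 4 were not called, with a median log2 fold change of 0.15. Of the 9 ER chaperones and sensors, 6 rose, 1 (Hsp90b1) fell and 2 were not called, with a median of 0.18. Over all genes tested 18% rose and 22.4% fell (40.4% called, median 0.03). Among 10094 genes averaging 3 or more log2 CPM, which include 26 of the 32 members, 25.7% rose and 40.9% fell (66.6% called, median -0.08). All 32 members passed the filter on low counts, and none changed by 2-fold or more in either knockout. With DESeq2 the ATF4 and amino acid genes split into 6 up and 7 down, and the share of all calls that were up was 34.3% in place of 44.6%.

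Mettl3 CKO nuclei had higher levels of most factors, of both feedback genes and of 4 of 6 transport genes than Mettl3 Control nuclei, while 1 of the 9 ER genes was called. Of the 23 ATF4 and amino acid genes, 13 rose, 2 (Asns and Slc7a3) fell and 8 were not called, with a median log2 fold change of 0.22. Of the 9 ER chaperones and sensors, 1 (Hspa5) rose, 0 fell and 8 were not called, with a median of 0.12. Over all genes tested 15.1% rose and 5.78% fell (20.9% called, median 0.03), and among those of at least 3 log2 CPM 29.6% rose and 7.05% fell (36.7% called, median 0.09). The scaling bears on this comparison: upper-quartile scaling shifted the median of all genes by -0.11, with 31.8% of all calls up in place of 72.3% and the ATF4 and amino acid genes at 9 up and 2 down. Testing without the low-count filter shifted that median by 0.11, with 91.2% of all calls up and 7 ER genes up. DESeq2 put 84.0% of all calls up. The 9 rises held under every alternative run were those of Atf4, Trib3, Slc7a5, Slc3a2, Slc7a1, Slc38a2, Atf5, Cebpb and Nupr1.

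**Figure D2:**
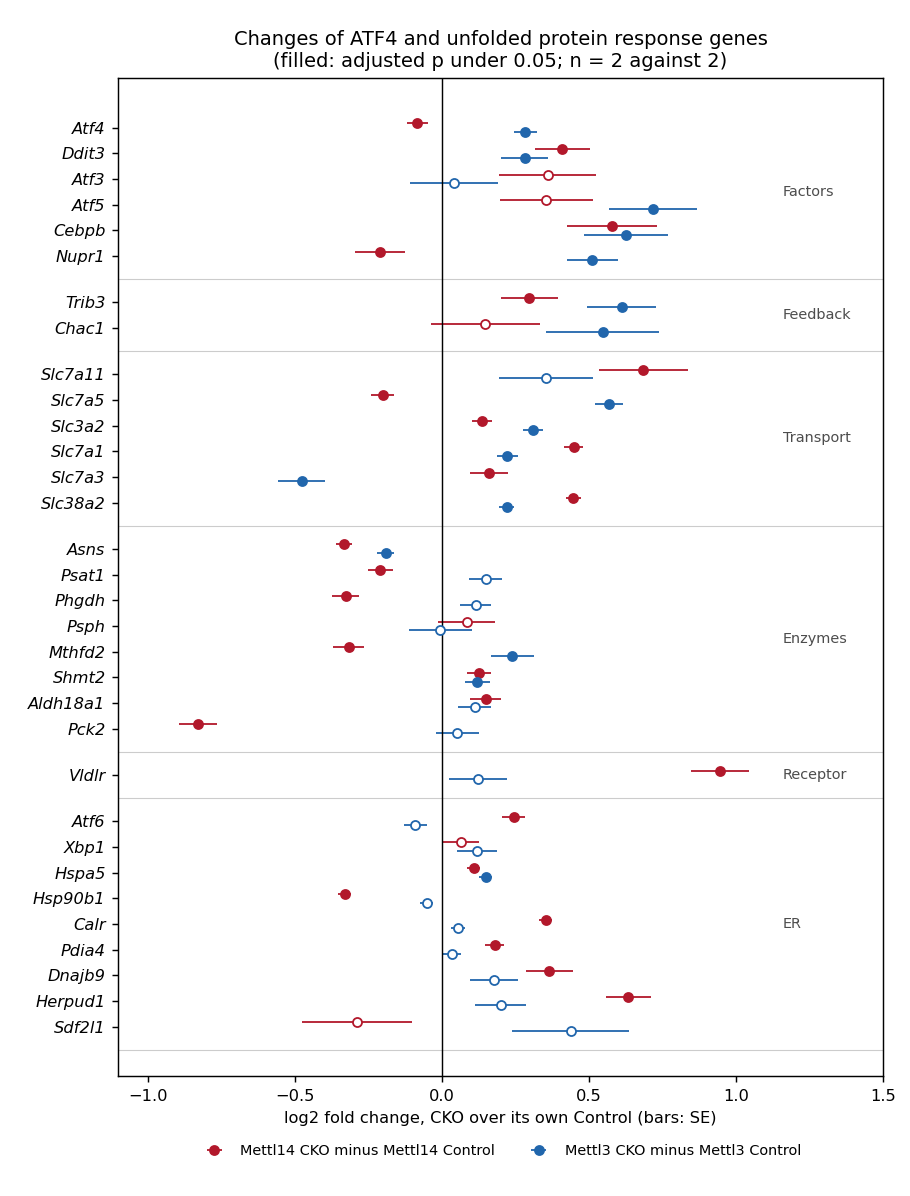
Log2 fold change of each member, CKO over its own Control, with its SE (n = 2 libraries against 2), in red for Mettl14 and in blue for Mettl3, and filled where called. The enzymes sit left of 0 in red more often than in blue, Vldlr and Herpud1 stand out on the right in red (0.95 and 0.63), and Slc7a5, Atf5 and Nupr1 on the right in blue (0.57, 0.72 and 0.51).

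Across both knockouts, 8 members rose in each: Cebpb, Ddit3, Hspa5, Shmt2, Slc38a2, Slc3a2, Slc7a1 and Trib3. Of all genes tested, 6.00% did so. A further 4 members (Atf4, Mthfd2, Nupr1 and Slc7a5) fell in Mettl14 CKO and rose in Mettl3 CKO, which 4.58% of all genes did. Slc7a3 rose in Mettl14 CKO and fell in Mettl3 CKO, and Asns fell in both, as did 0.666% and 2.45% of all genes. Atf3, Psph, Sdf2l1 and Xbp1 were called in neither. Most members average at least 3 log2 CPM, and genes of that level were called more often than all genes tested. In Mettl14 CKO 66.6% of them were called against 40.4%, and in Mettl3 CKO 36.7% against 20.9%. Shares for both knockouts together were not computed at that level. The counts of this paragraph therefore cannot show whether members differ from genes of similar level.

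Of the 6 factors, 2 rose and 2 fell in Mettl14 CKO, and 5 rose in Mettl3 CKO. Counts by role, here and in the next paragraphs, are of few genes. They are to be read against the shares of all genes and of those of at least 3 log2 CPM. Atf4 (chr15:80255184-80257541) encodes the factor that the pathway is named for, and its mRNA is controlled largely in translation, which these counts do not measure. Its level was 199.7 and 187 CPM in the Mettl14 CKO libraries, against 209 and 200.3 CPM in Mettl14 Control. The Mettl3 CKO libraries had 110.4 and 111 CPM, against 91.2 and 90.2 CPM in Mettl3 Control. Mettl14 CKO libraries lay just below their controls and Mettl3 CKO libraries clearly above theirs. The log2 fold change was -0.08 ± 0.04 (SE, edgeR adjusted p = 0.049) for Mettl14 and 0.28 ± 0.04 (SE, edgeR adjusted p = 4.2e-09) for Mettl3, and the difference between these changes was -0.37 ± 0.05 (SE, edgeR adjusted p = 2.8e-09). The small fall in Mettl14 CKO lost its call in 9 of 15 alternatives: without Mettl14 CKO replicate 2 it was -0.05 (adjusted p = 0.463), without Mettl14 Control replicate 1 it was -0.06 (adjusted p = 0.306), and without Mettl3 CKO replicate 1 or 2 or Mettl3 Control replicate 2 the adjusted p was 0.054 to 0.0548.

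Ddit3 (chr10:127290774-127296288), which encodes the stress factor CHOP, was higher in both knockouts. It had 21.9 and 21.3 CPM in Mettl14 CKO, against 17.2 and 15.3 CPM in Mettl14 Control, and 29.4 and 28.0 CPM in Mettl3 CKO, against 24.1 and 23.1 CPM in Mettl3 Control. No CKO library fell within the range of its controls. The log2 fold changes were 0.41 ± 0.09 (SE, edgeR adjusted p = 0.000115) for Mettl14 and 0.28 ± 0.08 (SE, edgeR adjusted p = 0.00551) for Mettl3, where upper-quartile scaling ended the call at 0.17 (adjusted p = 0.139). Its exons share 68 bases with Mars, a tRNA synthetase gene on the opposite strand. Cebpb (chr2:167688915-167690418) encodes a bZIP partner of ATF4. Its libraries had 8.41 and 9.07 CPM in Mettl14 CKO, against 5.68 and 6.01 CPM in Mettl14 Control. In Mettl3 CKO they had 8.74 and 9.998 CPM, against 6.33 and 5.81 CPM in Mettl3 Control. Both pairs of CKO libraries stood above all 4 control libraries, with log2 fold changes of 0.58 ± 0.15 (SE, edgeR adjusted p = 0.000845) for Mettl14 and 0.63 ± 0.14 (SE, edgeR adjusted p = 0.000315) for Mettl3. Both calls held under every alternative run, and 312 bases of the gene overlap Tmem189 on the opposite strand.

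Atf5 (chr7:44812256-44816658), a factor induced by ATF4 and tied to the mitochondrial stress response, was low in all groups. It had 8.32 and 9.79 CPM in Mettl3 CKO, against 4.90 and 6.11 CPM in Mettl3 Control, and 8.29 and 7.11 CPM in Mettl14 CKO, against 5.75 and 6.26 CPM in Mettl14 Control. The CKO libraries lay above their own controls in both. The log2 fold change was 0.72 ± 0.15 (SE, edgeR adjusted p = 7.1e-05) for Mettl3. The value for Mettl14, 0.36 ± 0.16 (SE, edgeR adjusted p = 0.0626), did not pass the test. It was called with upper-quartile scaling (0.40, edgeR adjusted p = 0.0342) and in a fit of the 4 Mettl14 libraries alone (0.39, edgeR adjusted p = 0.0274). Nupr1 (chr7:126623249-126630861) encodes a small stress-induced nuclear protein. Mettl3 CKO libraries had 25.1 and 25.7 CPM, against 17.9 and 17.7 CPM in Mettl3 Control. Mettl14 CKO libraries had 24.7 and 23.7 CPM, against 31.0 and 24.98 CPM in Mettl14 Control. Nupr1 was higher in both Mettl3 CKO libraries, while in Mettl14 1 Control library stood above the other 3. The changes were 0.51 ± 0.09 (SE, edgeR adjusted p = 9.5e-07) for Mettl3 and -0.21 ± 0.08 (SE, edgeR adjusted p = 0.0364) for Mettl14. The call in Mettl14 CKO ended in 8 of 15 alternatives: the change was -0.06 (adjusted p = 0.736) without Mettl14 Control replicate 1, -0.24 (adjusted p = 0.0637) without Mettl14 CKO replicate 1 and -0.19 (adjusted p = 0.159) without Mettl14 CKO replicate 2. Atf3, an early stress factor, was called in neither knockout, at 0.36 for Mettl14, where it was called without Mettl14 Control replicate 1 (0.56, adjusted p = 0.034), and 0.04 for Mettl3.

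Both feedback and glutathione genes were higher in Mettl3 CKO. Trib3 (chr2:152337422-152344032) encodes a pseudokinase that damps ATF4 and CHOP activity. It had 12.0 and 13.5 CPM in Mettl3 CKO, against 8.68 and 7.98 CPM in Mettl3 Control, and 22.3 and 21.9 CPM in Mettl14 CKO, against 19.3 and 16.7 CPM in Mettl14 Control. CKO libraries lay above their controls in both. The log2 fold changes were 0.61 ± 0.12 (SE, edgeR adjusted p = 1.3e-05) for Mettl3 and 0.30 ± 0.10 (SE, edgeR adjusted p = 0.00833) for Mettl14. In Mettl14 the call ended with DESeq2 (adjusted p = 0.156), without Mettl14 CKO replicate 1 (0.29, adjusted p = 0.0508) and when Mettl14 Control replicate 2 was left out (0.20, adjusted p = 0.233). Chac1 (chr2:119351229-119354381), which encodes an enzyme that degrades glutathione and whose window holds the CARE printed earlier, was among the lowest members. Mettl3 CKO libraries had 5.35 and 4.84 CPM, against 2.99 and 3.99 CPM in Mettl3 Control. Mettl14 CKO libraries had 5.23 and 6.03 CPM, against 4.85 and 5.32 CPM in Mettl14 Control, and these overlap. The change was 0.55 ± 0.19 (SE, edgeR adjusted p = 0.0288) for Mettl3 and 0.15 ± 0.18 (SE, edgeR adjusted p = 0.564) for Mettl14. The rise in Mettl3 CKO lost its call in 5 of 15 alternatives, among them when Mettl3 CKO replicate 1 (0.51, adjusted p = 0.122) or Mettl3 Control replicate 1 (0.38, adjusted p = 0.256) was left out.

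Of the 6 transport genes, 5 rose and 1 fell in Mettl14 CKO, and 4 rose and 1 fell in Mettl3 CKO. Of genes of at least 3 log2 CPM, 25.7% rose and 40.9% fell in Mettl14 CKO, and 29.6% rose and 7.05% fell in Mettl3 CKO. Slc7a5 (chr8:121881150-121907694), the large neutral amino acid transporter LAT1, went opposite ways. It had 121 and 129 CPM in Mettl14 CKO, against 142 and 145 CPM in Mettl14 Control, and 82.1 and 80.4 CPM in Mettl3 CKO, against 54.5 and 55.1 CPM in Mettl3 Control. Both Mettl14 CKO libraries lay below their controls, and both Mettl3 CKO libraries above theirs. The log2 fold changes were -0.20 ± 0.04 (SE, edgeR adjusted p = 9.3e-06) and 0.57 ± 0.05 (SE, edgeR adjusted p = 1.7e-20), and their difference, Mettl14 minus Mettl3, was -0.77 ± 0.06 (SE, edgeR adjusted p = 3.1e-22). Slc3a2, the partner subunit that LAT1 and xCT both need, rose in both, by 0.14 in Mettl14 CKO (not called with DESeq2, adjusted p = 0.106) and by 0.31 in Mettl3 CKO.

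Slc7a3, a transporter of arginine and lysine, showed the opposite pattern to Slc7a5. It had 53.0 and 49.4 CPM in Mettl14 CKO, against 43.2 and 48.4 CPM in Mettl14 Control, and 19.6 and 19.3 CPM in Mettl3 CKO, against 26.1 and 28.1 CPM in Mettl3 Control. Only the Mettl3 libraries were widely apart. The changes were 0.16 ± 0.06 (SE, edgeR adjusted p = 0.0385) for Mettl14 and -0.48 ± 0.08 (SE, edgeR adjusted p = 5.6e-07) for Mettl3. The rise in Mettl14 CKO ended in 5 of 15 alternatives, among them without Mettl14 CKO replicate 1 (0.11, adjusted p = 0.314) and without Mettl14 Control replicate 1 (0.07, adjusted p = 0.607). Slc7a1, another transporter of cationic amino acids, and Slc38a2, the sodium-coupled neutral transporter SNAT2, moved alike, each by 0.45 in Mettl14 CKO and 0.22 in Mettl3 CKO, and these calls held under every alternative run. Slc38a2 had 712 and 715 CPM in Mettl14 CKO, against 529 and 516 CPM in Mettl14 Control. The cystine transporter gene Slc7a11 (chr3:49892526-50443614) had 8.63 and 11.3 CPM in Mettl14 CKO, against 6.00 and 6.45 CPM in Mettl14 Control. In Mettl3 CKO it had 6.09 and 7.34 CPM, against 5.10 and 5.40 CPM in Mettl3 Control. Both Mettl14 CKO libraries stood above the other 6, and both Mettl3 CKO libraries above their own controls. Its change was 0.69 ± 0.15 (SE, edgeR adjusted p = 6.4e-05) in Mettl14, where the call ended without Mettl14 CKO replicate 2 (0.46, adjusted p = 0.0547), and 0.35 ± 0.16 (SE, edgeR adjusted p = 0.102) in Mettl3, which did not pass but was called without Mettl3 CKO replicate 1 (0.52, adjusted p = 0.0347).

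**Figure D3:**
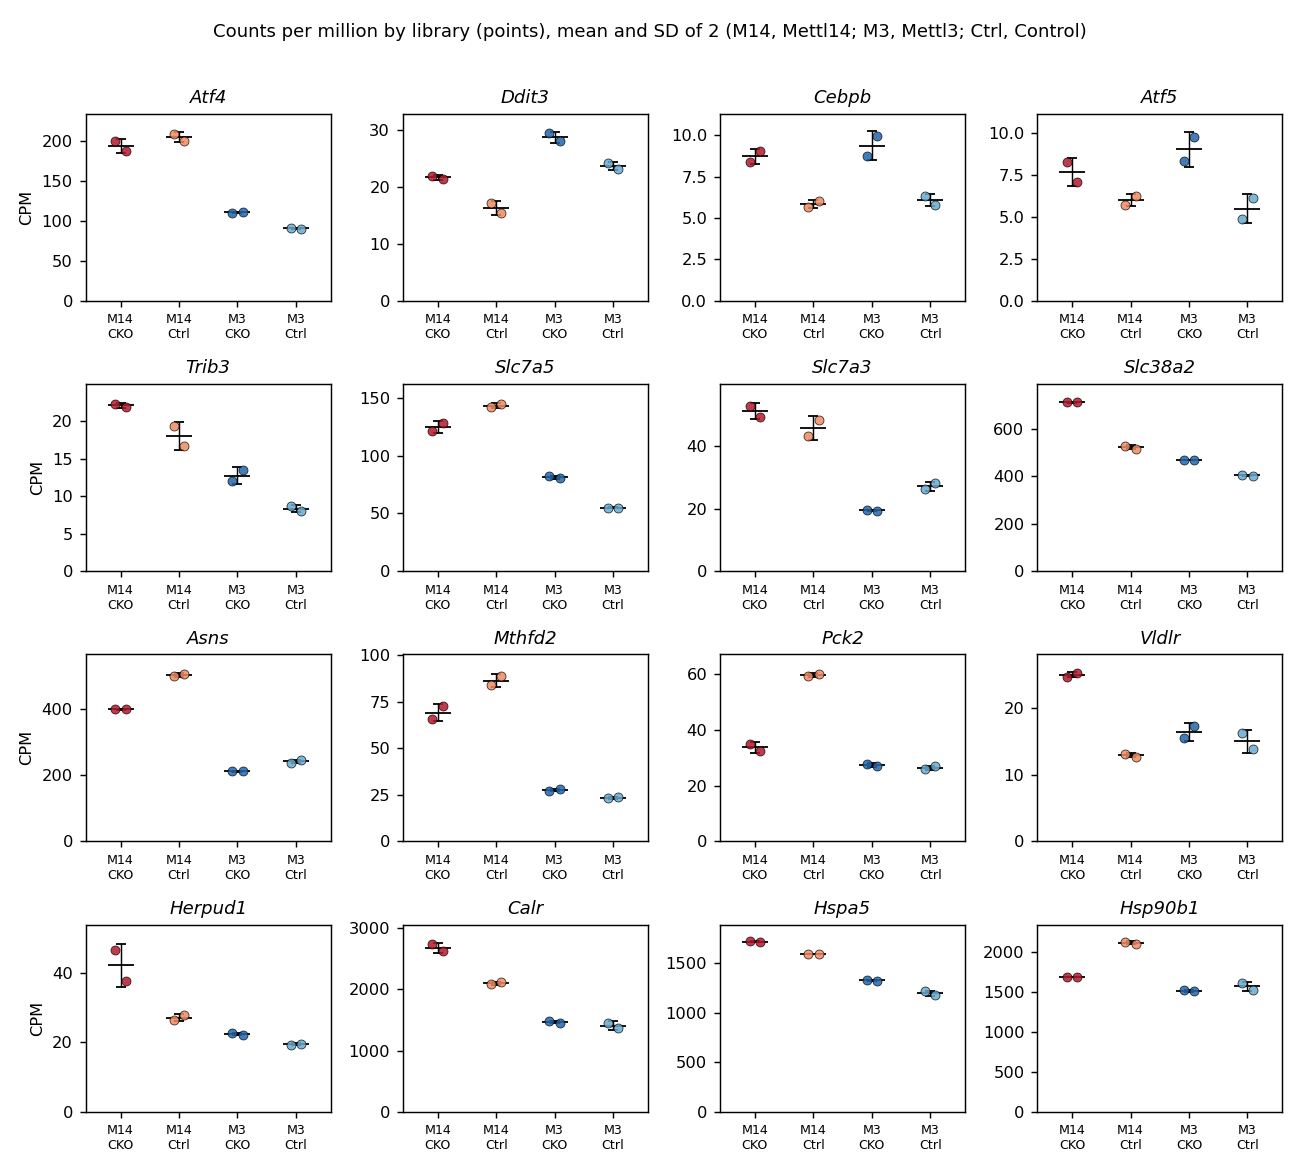
CPM of 16 members in each library (points), with the mean and SD of the 2 libraries of a group, from left to right Mettl14 CKO, Mettl14 Control, Mettl3 CKO and Mettl3 Control, on axes that start at 0. Slc7a5 and Slc7a3 go opposite ways in the pairs, Pck2 is low and Vldlr high in Mettl14 CKO, and Mthfd2 and Asns are higher in both Mettl14 groups than in both Mettl3 groups.

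Of the 8 enzymes, 5 fell and 2 rose in Mettl14 CKO, while 1 fell and 2 rose in Mettl3 CKO. Of genes of at least 3 log2 CPM, 40.9% fell and 25.7% rose in Mettl14 CKO, and 7.05% fell and 29.6% rose in Mettl3 CKO. Pck2 (chr14:55540266-55551242), the mitochondrial phosphoenolpyruvate carboxykinase, changed most among the enzymes. It had 35.0 and 32.4 CPM in Mettl14 CKO, against 59.2 and 60.2 CPM in Mettl14 Control, and 27.9 and 26.9 CPM in Mettl3 CKO, against 25.8 and 26.9 CPM in Mettl3 Control. Mettl14 CKO libraries were far below their controls, and the Mettl3 libraries lay close together. The change was -0.83 ± 0.07 (SE, edgeR adjusted p = 2.4e-23) in Mettl14 and 0.05 ± 0.07 (SE, edgeR adjusted p = 0.673) in Mettl3, with a difference of -0.88 ± 0.10 (SE, edgeR adjusted p = 6.2e-14). Asns, which makes asparagine, had 401 and 399.7 CPM in Mettl14 CKO, against 499.7 and 508 CPM in Mettl14 Control. It had 213 and 212 CPM in Mettl3 CKO, against 239 and 246 CPM in Mettl3 Control. The CKO libraries were below their controls in both, by -0.33 ± 0.03 for Mettl14 and -0.19 ± 0.03 for Mettl3 on the log2 scale, the second of which ended without the low-count filter (-0.08, adjusted p = 0.0684).

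The serine pathway enzymes Phgdh, which catalyses its first step, and Psat1, the aminotransferase after it, fell by 0.33 and 0.21 in Mettl14 CKO, while the phosphatase Psph did not pass (0.09). Phgdh had 83.4 and 93.8 CPM in Mettl14 CKO, against 113 and 109 CPM in Mettl14 Control. In Mettl3 CKO all 3 missed the test, at 0.12 for Phgdh, 0.15 for Psat1 (adjusted p = 0.0501) and -0.00 for Psph, though Psat1 was called in 8 and Phgdh in 6 of 15 alternatives. Among these were fits without Mettl14 CKO replicate 1 or 2, Mettl14 Control replicate 1 or 2 or Mettl3 CKO replicate 1, which put Psat1 at 0.18 to 0.25 and Phgdh at 0.14 to 0.19, and for Psat1 without Mettl3 Control replicate 2 (0.23). Mthfd2, a mitochondrial folate enzyme, went opposite ways, with 65.9 and 72.6 CPM in Mettl14 CKO against 83.9 and 88.8 CPM in Mettl14 Control, and 27.1 and 28.1 CPM in Mettl3 CKO against 23.1 and 23.6 CPM in Mettl3 Control. Its changes were -0.32 ± 0.05 (SE, edgeR adjusted p = 1.4e-07) and 0.24 ± 0.07 (SE, edgeR adjusted p = 0.00997), and the rise in Mettl3 CKO was not called with upper-quartile scaling (0.13, adjusted p = 0.237) or in a fit of its 4 libraries alone (0.20, adjusted p = 0.0717). Shmt2, the mitochondrial serine hydroxymethyltransferase, rose by 0.13 in Mettl14 CKO and 0.12 in Mettl3 CKO, and Aldh18a1, which starts proline synthesis, by 0.15 in Mettl14 CKO. These last 3 calls each ended in 4 to 6 of 15 alternatives. For Shmt2 they included fits without Mettl14 CKO replicate 2 (0.11, adjusted p = 0.086) or Mettl14 Control replicate 1 (0.11, adjusted p = 0.0886) for Mettl14, and without Mettl3 CKO replicate 1 (0.14, adjusted p = 0.0539) for Mettl3. For Aldh18a1 they included each fit without a Mettl14 library, at 0.13 to 0.16 (adjusted p = 0.0558 to 0.138). In Mettl3 it did not pass (0.11), but was called without Mettl14 CKO replicate 1 or Mettl14 Control replicate 2 (0.15).

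Vldlr (chr19:27216484-27254231), a lipoprotein receptor that ATF4 is known to induce under ER stress, had the largest rise of the 32 members in Mettl14 CKO. It had 24.7 and 25.2 CPM there, against 13.1 and 12.7 CPM in Mettl14 Control, and 15.5 and 17.3 CPM in Mettl3 CKO, against 16.2 and 13.8 CPM in Mettl3 Control. Mettl14 CKO libraries stood above the other 6, and the Mettl3 libraries overlapped. The log2 fold change was 0.95 ± 0.10 (SE, edgeR adjusted p = 1.5e-15) in Mettl14 and 0.12 ± 0.10 (SE, edgeR adjusted p = 0.413) in Mettl3, and the difference was 0.82 ± 0.14 (SE, edgeR adjusted p = 4.0e-07).

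Of the ER sensors and factors, Atf6 rose in Mettl14 CKO. Atf6 (chr1:170704674-170867771) encodes the membrane-bound sensor that is cut to release a transcription factor. Its libraries had 137 and 136 CPM in Mettl14 CKO, against 115 and 116 CPM in Mettl14 Control. They had 103 and 110.4 CPM in Mettl3 CKO, against 113 and 114 CPM in Mettl3 Control. Mettl14 CKO libraries were above all others. The change was 0.24 ± 0.04 (SE, edgeR adjusted p = 6.9e-08) in Mettl14 and -0.09 ± 0.04 (SE, edgeR adjusted p = 0.101) in Mettl3, with a difference of 0.33 ± 0.06 (SE, edgeR adjusted p = 2.9e-07). In Mettl3 a fall was called with RLE scaling (-0.11, adjusted p = 0.0476), with upper-quartile scaling (-0.20) and in a fit of its 4 libraries alone (-0.13, adjusted p = 0.0273). Xbp1 (chr11:5520659-5525893), whose mRNA IRE1 splices to make the active factor, had 49.7 and 50.8 CPM in Mettl14 CKO, against 48.1 and 48.0 CPM in Mettl14 Control. It had 35.0 and 35.4 CPM in Mettl3 CKO, against 30.3 and 34.4 CPM in Mettl3 Control. Both CKO libraries lay slightly above both of their controls in each knockout, but neither change passed the test, at 0.06 ± 0.06 (SE, edgeR adjusted p = 0.445) for Mettl14 and 0.12 ± 0.07 (SE, edgeR adjusted p = 0.214) for Mettl3, although without Mettl3 Control replicate 2 the Mettl3 value was called (0.25, adjusted p = 0.0199). Counts per gene do not show the splicing of Xbp1.

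The 7 chaperones and quality control genes did not move as a block in Mettl14 CKO, where 5 rose and Hsp90b1 fell. Hspa5 (chr2:34771970-34777547) had 1720.2 and 1716 CPM in Mettl14 CKO, against 1595 and 1591 CPM in Mettl14 Control. It had 1331 and 1321 CPM in Mettl3 CKO, against 1215 and 1177 CPM in Mettl3 Control. CKO libraries were slightly above their controls in both pairs. The changes were small, 0.11 ± 0.02 (SE, edgeR adjusted p = 1.1e-05) in Mettl14 and 0.15 ± 0.02 (SE, edgeR adjusted p = 2.0e-08) in Mettl3, and the call in Mettl3 ended with upper-quartile scaling (0.04, adjusted p = 0.25). Herpud1 (chr8:94386438-94395377), which takes part in the degradation of misfolded ER proteins and whose window holds both a CARE and an ERSE-II, had 46.5 and 37.6 CPM in Mettl14 CKO, against 26.3 and 27.7 CPM in Mettl14 Control. Its Mettl3 CKO libraries had 22.6 and 22.1 CPM, against 19.3 and 19.6 CPM in Mettl3 Control. Mettl14 CKO libraries stood above the rest and apart from each other. The change was 0.63 ± 0.08 (SE, edgeR adjusted p = 2.6e-12) in Mettl14 and 0.20 ± 0.09 (SE, edgeR adjusted p = 0.0872) in Mettl3, and the Mettl3 value was called without any 1 Mettl14 library (0.23 to 0.24, adjusted p = 0.0259 to 0.0397).

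Calr and Hsp90b1, both with ERSE matches, went apart in Mettl14 CKO. Calr had 2737 and 2626 CPM in Mettl14 CKO, against 2083 and 2115 CPM in Mettl14 Control, a change of 0.35 ± 0.02 (SE, edgeR adjusted p = 1.9e-22). Hsp90b1 had 1681 and 1685 CPM in Mettl14 CKO, against 2128 and 2103 CPM in Mettl14 Control, a change of -0.33 ± 0.02 (SE, edgeR adjusted p = 6.6e-29). Both calls held under every alternative run, and no library of one group fell within the range of the other. In Mettl3 neither passed, at 0.06 for Calr and -0.05 for Hsp90b1, but these small values took a call under 9 (Calr, up) and 4 (Hsp90b1, down) of 15 alternatives. For Calr these included each fit without 1 library other than Mettl3 Control replicate 2, at 0.08 to 0.14. Dnajb9, an ER cochaperone, rose by 0.37 and Pdia4 by 0.18 in Mettl14 CKO, the second not called with DESeq2 (0.13, adjusted p = 0.0666). In Mettl3 Dnajb9 was at 0.18 and Pdia4 at 0.03, both short of a call. Dnajb9 was called without Mettl14 CKO replicate 1, Mettl14 Control replicate 2, Mettl3 CKO replicate 1 or Mettl3 Control replicate 1 (0.22 to 0.31), and Pdia4 without Mettl14 CKO replicate 1, Mettl14 Control replicate 2, Mettl3 CKO replicate 2 or Mettl3 Control replicate 1 (0.08 to 0.14). Sdf2l1, a small ER protein that works with BiP, had at most 6.00 CPM in any library and was called in neither knockout, at -0.29 for Mettl14 and 0.44 for Mettl3, though called at 0.69 in Mettl3 without Mettl3 CKO replicate 1.

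The difference between the knockouts was tested directly as the Mettl14 change minus the Mettl3 change. Of the ATF4 and amino acid genes, 4 were higher and 9 lower in this difference, with a median of -0.14. Of the ER chaperones and sensors, 4 were higher and 2 lower, with a median of 0.15. Over all genes tested 12.7% were higher and 20.5% lower (33.2% called, median 0.02), and among those of at least 3 log2 CPM 14.8% were higher and 40.2% lower (55% called, median -0.15). The lower members included 5 of 8 enzymes (Asns, Psat1, Phgdh, Mthfd2 and Pck2), and 0 enzymes were higher. Held under every alternative run were the lower values of Atf4, Psat1, Phgdh, Slc7a5, Mthfd2, Pck2, Nupr1 and Hsp90b1 and the higher ones of Slc7a3, Slc38a2, Vldlr, Calr and Atf6. The difference of Herpud1, 0.43, was not called without Mettl14 CKO replicate 1 (0.24, adjusted p = 0.157) or with DESeq2 (0.37, adjusted p = 0.0665). Those of Pdia4 and Sdf2l1 each ended in 6 of 14 alternatives. For Pdia4 they included fits without Mettl14 CKO replicate 2, Mettl14 Control replicate 2, Mettl3 CKO replicate 2 or Mettl3 Control replicate 1 (0.05 to 0.10, adjusted p = 0.0658 to 0.317). For Sdf2l1 they included fits without Mettl14 CKO replicate 1, Mettl14 Control replicate 1, Mettl3 CKO replicate 2 or Mettl3 Control replicate 1 (-0.74 to -0.51, adjusted p = 0.0503 to 0.228). With DESeq2, 2 ER genes in place of 4 were higher. Upper-quartile scaling shifted the median of all genes by 0.16 and the share of calls that were higher to 60.6% in place of 38.4%, and moved the median of the ATF4 and amino acid genes to 0.02. Without the low-count filter that share was 26.0% and with DESeq2 22.4%.

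The 2 control groups also differed from each other in most of these genes. In Mettl14 Control against Mettl3 Control, 17 of the 23 ATF4 and amino acid genes were higher and 2 (Ddit3 and Atf3) lower, with a median log2 difference of 0.53. Of the 9 ER chaperones and sensors 7 were higher and 0 lower, with a median of 0.43. Over all genes tested 33.6% were higher and 34.1% lower (67.8% called, median -0.09), and among those of at least 3 log2 CPM 57.9% were higher and 25.8% lower (83.7% called, median 0.30). All 8 enzymes were higher in Mettl14 Control, from 0.41 for Shmt2 to 1.89 for Mthfd2. Mthfd2 had 83.9 and 88.8 CPM in Mettl14 Control, against 23.1 and 23.6 CPM in Mettl3 Control. Psat1, at 127 and 125 CPM in Mettl14 Control against 37.7 and 40.5 CPM in Mettl3 Control, differed by 1.69 ± 0.05. Atf4 itself differed by 1.18 ± 0.04 (SE, edgeR adjusted p = 2.2e-60), Slc7a5 by 1.39 ± 0.04 and Trib3 by 1.11 ± 0.11, while Ddit3 was lower by -0.54 ± 0.09. None of the libraries of the 2 control groups overlapped for these genes. Upper-quartile scaling shifted the median of all genes by -0.22, with 37.4% of all calls higher in place of 49.7%, and the low-count filter left out shifted it by 0.14. The lower value of Atf3 (-0.38) ended in 9 of 15 alternatives, at -0.15 to -0.41 (adjusted p = 0.055 to 0.54). Why the control groups differ is not given in the labels, the marker sums given earlier differ between them too, and their part was not tested. These comparisons share the control libraries with the knockout comparisons.

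Genes around the members were taken from 4 further lists, chosen with earlier results of these data known. Their counts are therefore descriptive and not independent of the data. Of 32 further unfolded protein response genes, 20 rose and 3 fell in Mettl14 CKO (median 0.23), and 14 rose and 1 fell in Mettl3 CKO (median 0.10). Of all genes tested, 18% rose and 22.4% fell in Mettl14 CKO and 15.1% rose and 5.78% fell in Mettl3 CKO, and among those of at least 3 log2 CPM 25.7% rose and 40.9% fell in Mettl14 CKO and 29.6% rose and 7.05% fell in Mettl3 CKO. The medians of these abundant genes were -0.08 in Mettl14 CKO and 0.09 in Mettl3 CKO. In Mettl14 CKO the translocon subunit Sec61a1 rose by 0.80, the disulfide isomerase P4hb by 0.71 and the chaperone Hyou1 by 0.45, against 0.09, 0.08 and 0.05 in Mettl3, the last of which was not called. Hyou1 took a call in Mettl3 in 6 of 15 alternatives (0.07 to 0.15), among them without Mettl14 CKO replicate 1, Mettl14 Control replicate 1 or 2, Mettl3 CKO replicate 2 or Mettl3 Control replicate 2. With upper-quartile scaling the Mettl3 values of Sec61a1 and P4hb were -0.03 each, not called. In Mettl3 CKO the isomerase Pdia3 rose by 0.14, and Sel1l, of the ER degradation complex, and the thioredoxin-like Txndc5 each by 0.19. Of 20 further ATF4 targets tested, 8 rose and 8 fell in Mettl14 CKO (median -0.10), and 13 rose and 1 fell in Mettl3 CKO (median 0.27). The neutral amino acid transporter gene Slc1a4 rose by 0.82 in Mettl14 CKO and 0.55 in Mettl3 CKO. The aminotransferase Bcat1 and the cysteine-forming enzyme Cth fell by 0.76 and 0.61 in Mettl14 CKO. In Mettl3 CKO the translation repressor gene Eif4ebp1 rose by 0.40 and the folate enzyme gene Aldh1l2 by 0.48.

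The 20 cytosolic aminoacyl-tRNA synthetase genes, which charge tRNAs with amino acids, had 2 members up and 13 down in Mettl14 CKO (median -0.23), and 3 up and 4 down in Mettl3 CKO (median 0.01), to be read against the same shares of abundant genes. Vars (valine), Dars (aspartate) and Nars (asparagine) fell by 0.78, 0.69 and 0.50 in Mettl14 CKO. In Mettl3 CKO Qars (glutamine) and Dars fell by 0.24 and 0.22 and Cars (cysteine) rose by 0.19. Of 17 genes for stress kinases and eIF2 control, 4 rose and 8 fell in Mettl14 CKO (median -0.15), and 5 rose and 1 fell in Mettl3 CKO (median 0.01). The 3 eIF2 subunit genes fell in Mettl14 CKO, Eif2s2 by 0.74, Eif2s1 by 0.61 and Eif2s3x by 0.59, and were not called in Mettl3 CKO (-0.01, -0.06 and -0.07). Upper-quartile scaling called them lower there (-0.13, -0.18 and -0.18), and without the low-count filter Eif2s2 was called higher (0.09). In Mettl3 CKO Eif2ak3, the ER kinase PERK, and Impact, an inhibitor of the kinase GCN2, each rose by 0.21, and Ppp1r15b, which helps remove the phosphate from eIF2, by 0.18. With upper-quartile scaling the rises of Eif2ak3, Impact, Ppp1r15b, Cars, Pdia3, Sel1l and Txndc5 in Mettl3 CKO were not called (0.02 to 0.10), and of the further genes, each counted once, 9 rose and 21 fell there in place of 34 and 7. In the control groups, 14 of these 17 genes and 19 of the 20 synthetase genes were higher in Mettl14 Control than in Mettl3 Control, with 0 lower, as were 13 of 20 further ATF4 targets (5 lower) and 11 of 32 further unfolded protein response genes (16 lower). Of all genes tested, 33.6% were higher and 34.1% lower in Mettl14 Control, and of those of at least 3 log2 CPM 57.9% were higher and 25.8% lower.

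**Figure D4:**
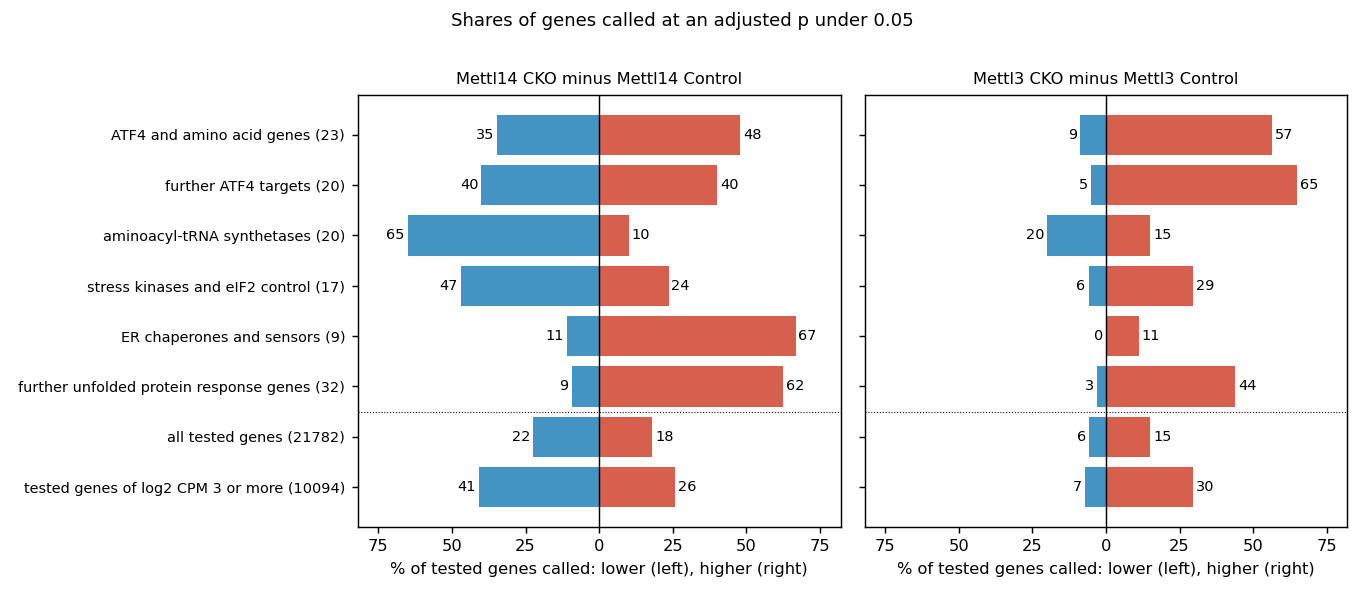
Share of the tested genes of each list called higher (red, right) or lower (blue, left) in Mettl14 CKO (left panel) and Mettl3 CKO (right panel), each against its own Control, with all tested genes and those of at least 3 log2 CPM under the dotted line. In Mettl14 CKO the synthetases lie mostly on the lower side (65%) and both lists of ER genes mostly on the higher side (66.7% and 62.5%), and in Mettl3 CKO the shares lower are at most 20%.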

How the data were processed

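Nuclear RNA was sequenced in 8 libraries. Per the labels' protocols, Trizol purification and RiboMinus depletion preceded library preparation with a SMARTer Stranded Total RNA-Seq kit (v2). The deposited files hold raw counts per gene, which the authors made with CASAVA, Trimmomatic 0.38, HISAT2 2.1.0, HTSeq and the mm10 genome, per the submitters' processing notes. The sources used here do not give the strand setting, the annotation used for counting or the handling of multiply mapping reads. IDs were matched without version to GENCODE M21 for 54409 of 54446 genes, and 0 lines named no gene.

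Groups and replicate numbers come from the sample titles. Within each group the replicates correlated at r of 0.995 to 0.997 in log2 CPM but were further apart than sampling noise (chi-square over its degrees of freedom 1.43 to 2.08), so neither was treated as a copy of the other. Genes were kept with filterByExpr at a minimum count of 10. edgeR 4.0.16 in R 4.3.3 fitted all groups together (TMM, glmQLFit with robust estimation, then glmQLFTest; 8 libraries, 4 residual degrees of freedom). Adjusted p-values are Benjamini-Hochberg over all 21782 genes tested, and a gene is called under 0.05. The common dispersion was 0.000571, and the script was tested on simulated data. Levels per length divide CPM by the exon union of the gene.

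The members and the 4 further lists were chosen with earlier results of these data known. Values in every library are given for members called in a knockout with a log2 fold change of at least 0.5 in size, and for Atf4, Ddit3, Xbp1, Hspa5 and Atf6; the values of Slc7a3, Slc38a2, Asns, Phgdh, Mthfd2, Calr, Hsp90b1 and Psat1 were added after they were seen. Up to 3 genes of each further list with the smallest p per knockout are named, and they were put through the same alternatives after their values were seen. Alternatives were RLE and upper-quartile scaling, no low-count filter, a replicate block, DESeq2 1.42.0, limma-voom (limma 3.58.1), a fit of the 4 libraries of a contrast and leaving out each library. Gcn1 was matched by its synonym Gcn1l1, and Fgf21 did not pass the filter.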

Additional observations from a re-analysis of the deposited data

Results flagged for a closer look

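The test of the difference between the knockouts, the Mettl14 change minus the Mettl3 change on the log2 scale in edgeR's quasi-likelihood fit, picked out 19 of the 32 members and 20 of the named genes of the further lists. Among the factors it was -0.37 for Atf4 and -0.72 for Nupr1. Among transport genes it was -0.77 for Slc7a5, -0.17 for Slc3a2, 0.23 for Slc7a1, 0.64 for Slc7a3 and 0.23 for Slc38a2. Among enzymes and the receptor it was -0.14 for Asns, -0.36 for Psat1, -0.44 for Phgdh, -0.56 for Mthfd2, -0.88 for Pck2 and 0.82 for Vldlr. In the ER group it was -0.28 for Hsp90b1, 0.43 for Herpud1, 0.30 for Calr, 0.15 for Pdia4, -0.73 for Sdf2l1 and 0.33 for Atf6. For the eIF2 and kinase genes the difference was 0.16 for Eif2ak3, 0.15 for Impact, -0.55 for Eif2s1, -0.72 for Eif2s2 and -0.52 for Eif2s3x. For the tRNA synthetases the difference was -0.16 for Cars, -0.47 for Dars, -0.53 for Nars, 0.17 for Qars and -0.85 for Vars. For the further ATF4 targets the difference was -0.50 for Eif4ebp1, -0.38 for Cth, 0.28 for Slc1a4 and -0.87 for Bcat1. For the further unfolded protein response genes the difference was 0.40 for Hyou1, 0.18 for Pdia3, 0.63 for P4hb, 0.13 for Sel1l, 0.71 for Sec61a1 and 0.34 for Txndc5. A positive difference means a higher change in Mettl14 CKO, and all have an adjusted p under 0.05. By the same test 33.2% of all genes tested differ, and 55% of those of at least 3 log2 CPM. The latter include 26 of the 32 members. The named genes were picked by small p in the knockout comparisons, so their count follows in part from that choice and cannot be set against these shares. Not all of these differences hold when the processing changes. Among the members, 1 of 14 alternatives ended the call of Asns, Slc3a2 (both with upper-quartile scaling) and Slc7a1 (without the low-count filter, 0.12), 2 ended that of Herpud1 (0.24, adjusted p = 0.157, without Mettl14 CKO replicate 1), and 6 each ended those of Pdia4 and Sdf2l1. In the further lists, 12 ended the call of Eif2ak3, among them each fit without 1 library (0.10 to 0.14, adjusted p = 0.132 to 0.305). For Sel1l 11 did so, among them each fit without 1 library other than Mettl3 CKO replicate 1 (0.04 to 0.13, adjusted p = 0.0529 to 0.61). For Impact 9 did so, among them fits without any 1 Mettl14 library, Mettl3 CKO replicate 1 or Mettl3 Control replicate 2 (0.04 to 0.15, adjusted p = 0.0533 to 0.621). For Qars 6 did so, among them fits without Mettl14 CKO replicate 2, Mettl14 Control replicate 1, Mettl3 CKO replicate 2 or Mettl3 Control replicate 1 (0.10 to 0.12, adjusted p = 0.0643 to 0.151). For Slc1a4 6 did so, among them fits without Mettl14 CKO replicate 1, Mettl14 Control replicate 2, Mettl3 CKO replicate 2 or Mettl3 Control replicate 2 (0.13 to 0.19, adjusted p = 0.189 to 0.421). The calls of Cars and Pdia3 ended in 1 alternative each.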

How the results depend on the processing

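Of 162 recomputed counts of calls in either direction, 148 lay within 1.5 times of the value reported, and the others all concern the ER chaperones and sensors called in Mettl3 CKO. That count was 1 as reported and 1 with DESeq2, 3 with RLE scaling, 2 with upper-quartile scaling, 7 without the low-count filter, 2 with the replicate block, 2 with limma-voom, 3 in a fit of its 4 libraries alone and 2 to 5 when 1 library was left out. Without the filter the median of all genes in Mettl3 CKO shifted by 0.11. Leaving out 1 library, 23509 to 24441 genes were tested in place of 21782, and that median shifted by 0.028 to 0.042. Such fits thus differ from the main one in the genes kept as well as in the library. The cause of these moves was not tested. Of 324 counts split by direction, 45 moved by more than 1.5 times: with DESeq2, 6 ATF4 and amino acid genes in place of 11 rose in Mettl14 CKO and 2 ER genes in place of 4 were higher in the difference between the knockouts. Of 1888 member values under 15 alternatives, 1675 kept their sign and side of the threshold, 83 lost the call, 76 gained one, 49 changed sign without a call in either fit and 5 changed sign with one. Of 968 values of the 22 named genes of the further lists, these numbers were 853, 69, 25, 17 and 4. With upper-quartile scaling the difference between the knockouts was 0.017 for Asns and 0.12 for Hspa5, and the difference of Mettl14 Control minus Mettl3 Control was -0.092 for Slc3a2 and -0.20 for Atf6, and the change in Mettl3 CKO was -0.00040 for Bcat1, -0.032 for P4hb and -0.025 for Sec61a1. Without the low-count filter the difference between the control groups was 0.071 for Pdia4 and the change in Mettl3 CKO 0.093 for Eif2s2. Deviations of same-numbered replicates correlated at -0.006 to 0.040 between groups. Sampling noise was a large part of the spread between replicates (chi-square over its degrees of freedom 1.43 to 2.08). These correlations therefore cannot show whether the numbers pair the samples. Apart from the count above, the replicate block moved no count of calls by over 1.5 times. A fit of 4 libraries could not give the difference between the knockouts. With 1 library left out, the lone library of its group is assumed to vary like the other groups. Low members such as Sdf2l1, Chac1 and Slc7a11 have about 3 to 11 CPM, which limits the changes that can be called.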
